A study of Homo sapiens with 9 samples.

Results

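The RNA of MV4;11 cells whose MYC carries the K148R substitution was compared with that of MV4;11 cells whose MYC carries K148Q. The genotype in the labels placed 6 of the 9 libraries of the series in this comparison, 3 for each substitution, and the 3 libraries of parental cells were left out. MV4;11 is a human acute myeloid leukaemia line with a rearranged MLL gene. All cells were untreated and kept in RPMI medium, so that both groups share the line, the medium and a changed residue of MYC, and neither is unmodified. How the residue was changed, and whether either genotype is a line grown from 1 clone, is told by no source used here. In the sample titles all libraries of a genotype share 1 code, which no source used here explains. The substitution and any other difference between the cells of these codes therefore cannot be told apart.

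MYC pairs with MAX on promoters that hold the E-box, where it recruits acetyltransferases and other cofactors and raises the transcription of genes for growth, ribosome production and DNA synthesis. Dimers of MAX with proteins of the MXD family occupy the same element and hold it down. The substituted residue is a lysine, a side chain that can be acetylated: glutamine resembles the acetylated form, whereas arginine keeps the charge of the free lysine and takes no acetyl group. In myeloid leukaemia, MYC activity is linked to proliferation and a block of maturation.

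Total counts per library ran from 14477839 to 18938391. Levels are in CPM, the gene's counts scaled to a common library size, as mean ± SD of n = 3 libraries where an SD is printed, and every log2 fold change is K148R minus K148Q. The genotypes lay apart on principal component 1, which held 92.5% of the variance. K148Q replicate 3 stood apart from the other K148Q libraries, where the chi-square of their counts divided by its degrees of freedom was 17.8 and 18.3, against 1.35 between those and 3.03 to 5.22 among the K148R libraries. Over tested genes, the deviation of that library from its group had a Spearman correlation of -0.75 with the GC content of the gene. Calls of named genes and counts of list members are therefore given without this library where they move. Of 48 list medians, 8 moved without it by more than the spread between replicates, and these are not printed without it. A further 1 changed sign and is given at the end. Nothing in the labels tells if libraries with the same genotype came from separate cultures, so p-values measure the spread between these libraries, and an exact permutation of 3 against 3 libraries cannot go below 0.1.

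The 7 markers written down for a myeloid leukaemia line, among them the receptor tyrosine kinase FLT3, had counts in every library, and their summed level was 1598 to 1644 CPM in K148Q and 1203 to 1271 CPM in K148R cells. The B cell marker MS4A1, the T cell marker CD3E and the epithelial marker EPCAM had 0 counts in all 6 libraries. Fewer markers of some other lineages were at 0 in the K148R libraries. Of 22 erythroid and megakaryocyte markers 17 had 0 counts over the K148Q libraries and 4 over the K148R libraries, with summed levels of 30.3 to 36.6 CPM in K148Q and 33.7 to 42.3 CPM in K148R libraries. For 14 fibroblast and epithelial markers these numbers were 7 and 2, with sums of 217 to 222 CPM in K148Q and 183 to 196 CPM in K148R libraries, nearly all of it PECAM1, which leukocytes also express. Of 16 B cell markers 8 were at 0 in each genotype, with sums of 6.42 to 8.67 CPM in K148Q and 8.31 to 9.93 CPM in K148R libraries, and of 18 T and NK cell markers 12 over the K148Q and 8 over the K148R libraries, with sums of 26.1 to 28 CPM in K148Q and 27.1 to 28.8 CPM in K148R libraries. Collagen genes of fibroblasts were at low level. COL1A1 was at 0, 0 and 0.0635 CPM in the K148Q libraries and 1.98, 3.08 and 3.47 CPM in the K148R libraries, and COL3A1 had 0 counts in K148Q and 1.13, 2.28 and 2.13 CPM in K148R. Over the whole table, 247 genes had 0 counts in K148Q and at least 10 over the K148R libraries, against 43 in the other direction, and K148R libraries held 15548 to 16085 genes with a count against 14656 to 14725. The part of these traces in the results below was not tested.

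MYC itself (chromosome 8, 127735434 to 127741434 on GRCh38) was transcribed in all 6 libraries. Its level was 489, 490.04 and 449 CPM in the K148Q libraries and 376, 375 and 369 CPM in the K148R libraries. Each K148R library lay below each K148Q library. The means were 476 ± 23.2 and 373 ± 3.78 CPM (log2 fold change -0.35, SE 0.0552, adjusted p = 0.00019), a difference of less than 1.5-fold. Gene counts do not show the codon, so they do not check the substitution.

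Most of the measured transcriptome differed between the genotypes. Of 12509 tested genes 8506 (68.0%) had an adjusted p under 0.05 by edgeR's quasi-likelihood test, 4178 (33.4%) higher and 4328 (34.6%) lower in K148R cells. The 3 libraries of each group did not overlap for 9012 genes (72.0%). The filter asks for 0.648 CPM on library totals in 3 libraries, so a gene can pass through 1 genotype alone, and such a gene had to differ. There were 679 such genes for K148R and 395 for K148Q. Of 11327 genes that reached that level in all 6 libraries 3581 were higher and 4010 lower. Lists whose calls are counted below without this split hold at most 1 gene that passed through each genotype alone. Changes were often small, since the absolute log2 fold change had a median of 0.50 and 3106 of the called genes differed by less than 1.5-fold. By at least 2-fold 3178 genes (25.4%) differed, 1635 higher and 1543 lower. Without K148Q replicate 3 the called genes numbered 4680 higher and 4692 lower. These shares are the background for every count of list members below: a list with a share of calls near these in each direction looks like the whole table.

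**Figure D1:**
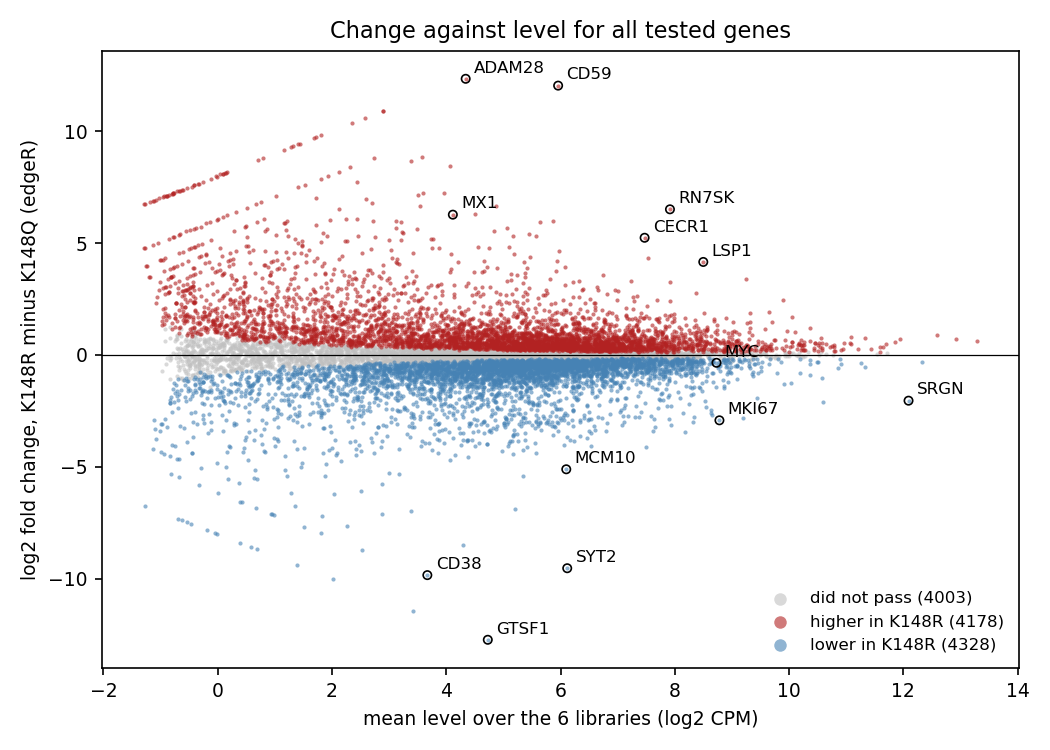
Each point is 1 of the 12509 tested genes, with the mean level over the 6 libraries in log2 CPM on the horizontal axis and the log2 fold change on the vertical axis. Red points are the 4178 genes called higher and blue points the 4328 called lower in K148R cells, grey points did not pass, and the straight rows at low level are genes with 0 or 1 count in a group, whose fitted fold change is no bound.

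A few genes were near silent in one genotype and well transcribed in the other. With at most 3 counts over the 3 libraries of a group and at least 10 CPM in the other, 10 genes were near silent in K148Q and 4 in K148R. CD59 (chromosome 11, 33703010 to 33736491), an inhibitor of complement on the cell surface, had 1 count in all K148Q libraries together and 115, 128 and 129.6 CPM in the K148R libraries. The ratio of counts was 5663 (95% interval 1016 to 223702), an interval that covers counting error only. ADAM28, a membrane metalloprotease, had 0 counts in K148Q and 38.7, 40.1 and 42.7 CPM in K148R cells, at least 617-fold higher against a floor of 3 counts over the group. Among the others were the inhibitory Fc receptor FCGR2B and the lysosomal protease CTSF, with 2 counts each in K148Q and 23.9 and 20.7 CPM in K148R. GPX7 had 1 count in K148Q and 13.3 CPM in K148R. GLB1L2, CSMD3, SDK2 and the mitochondrial lipid kinase AGK had 0 counts in K148Q and 10.2 to 14.8 CPM in K148R, at least 156-fold to 227-fold higher.

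In the other direction, GTSF1 (chromosome 12, 54455950 to 54473602), a gene known for transposon silencing in germ cells, was at 53, 54 and 51.9 CPM in the K148Q libraries. In K148R it had 0 counts and was at least 882-fold lower. NDN, an imprinted growth suppressor, had 21.5 ± 0.45 CPM in K148Q and no count in K148R, which makes it at least 358-fold lower. CD38, the NAD-consuming ectoenzyme targeted by antibodies in myeloma, was at 25.9, 25.1 and 25.3 CPM in the K148Q libraries with 1 count over the K148R libraries. The counts stood in a ratio of 1271 (95% interval 228 to 50248). SLC46A1, the proton-coupled folate transporter, also had 1 count in K148R cells, with 11.6 CPM in K148Q cells. Just above that limit on counts, SYT2, a calcium sensor of vesicle release, fell from 139 ± 5.98 to 0.186 ± 0.0806 CPM (log2 fold change -9.53, SE 0.159, adjusted p = 5.3e-11), and MRFAP1L1 from 39.3 ± 3.15 to 0.101 ± 0.037 CPM. ALOX12, a platelet-type lipoxygenase, fell from 72.7 ± 5.99 to 0.597 ± 0.131 CPM, and FKBP9, GIPC3, NEFH, WSCD1 and NGFRAP1 had log2 fold changes of -7.08, -6.95, -6.06, -5.75 and -5.39. Among genes with at least 10 CPM in K148R, the largest rises beyond the near silent genes were those of GFRA2, a receptor of neurturin, from 0.089 ± 0.0771 to 33.6 ± 4.29 CPM, and of SULF2, an extracellular sulfatase, from 0.197 ± 0.00735 to 30.8 ± 1.85 CPM. All but NGFRAP1 of the genes described here and in the paragraph before passed the filter through 1 genotype alone. Such genes had to differ. SYT2 shares exon bases with PPP1R12B on the other strand, and no source used here gives the strand that was counted.

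The 6 rises with the smallest p-values, among genes at 10 CPM or more, included CD59, described above, and CECR1, AMICA1, PRDM1 and LSP1. CECR1 (chromosome 22, 17178790 to 17258235), a secreted adenosine deaminase of myeloid cells, was at 9.25, 8.74 and 9.52 CPM in the K148Q libraries and 349.9, 336 and 352 CPM in the K148R libraries (log2 fold change 5.23, SE 0.075, adjusted p = 2.3e-11). The leukocyte adhesion molecule AMICA1 rose from 1.83 ± 0.233 to 116 ± 2.06 CPM (log2 fold change 5.97, SE 0.11, adjusted p = 7.4e-11). PRDM1, a transcriptional repressor of differentiating leukocytes, rose from 1.61 ± 0.165 to 98.2 ± 4.61 CPM and LSP1, an actin-binding protein of leukocytes, from 38.5 ± 3.55 to 685 ± 36.3 CPM. The rule that chose these genes asked that no library of one group reach into the range of the other, so this is no result about them. Among the 6 falls with the smallest p-values SYT2, also described above, came first, and MCM4, MCM10, MCM6 and CDC6 are given with the replication genes. UNG, the uracil glycosylase that removes uracil from new DNA, was at 175, 174 and 174 CPM in K148Q and 11.4, 10.6 and 9.56 CPM in K148R libraries (log2 fold change -4.05, SE 0.0848, adjusted p = 1.1e-10).

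Genes of the replicating and dividing cell were lower in K148R cells almost without exception. Of 55 tested genes of the DNA replication machinery 53 were lower and 0 higher, with a median log2 fold change of -2.73 against -0.01 over all tested genes. The other 2, both subunits of the origin recognition complex, did not pass. Of 58 genes of mitosis, the spindle and the kinetochore 57 were lower (median -2.90) and the remaining one, a checkpoint gene, did not pass. Of 35 genes of DNA damage and recombination repair 32 were lower and 0 higher (median -2.69). By at least 2-fold, 50, 57 and 29 members of these lists were lower. Without K148Q replicate 3, 2 replication genes and 1 repair gene passed as higher.

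MCM6 (chromosome 2, 135839626 to 135876426), part of the replicative helicase, was at 525, 538 and 524 CPM in the K148Q libraries and 49.4, 51.2 and 44.8 CPM in the K148R libraries (log2 fold change -3.45, SE 0.0678, adjusted p = 7.4e-11). MCM4, another subunit, fell from 1027 ± 19 to 144 ± 3.24 CPM, and MCM10, which helps to activate the helicase, from 133 ± 4.49 to 3.87 ± 0.351 CPM (log2 fold change -5.11, SE 0.0977, adjusted p = 7.4e-11). CDC6, which loads the helicase onto origins, was at 136, 146 and 143 CPM and 9.7, 10.5 and 9.44 CPM (log2 fold change -3.84, SE 0.0836, adjusted p = 1.4e-10). The rule that chose these genes by p-value asked for groups that do not overlap. Replicates within a genotype differed far less than the genotypes did, which a small p-value implies. MKI67 (chromosome 10, 128096659 to 128126385), the proliferation antigen Ki-67, was at 799, 786 and 747 CPM in K148Q and 102, 111 and 95.6 CPM in K148R libraries (log2 fold change -2.92, SE 0.0683, adjusted p = 1.6e-10). The cell cycle factor MYBL2 fell from 340.3 ± 26.7 to 19.7 ± 1.57 CPM, the spindle assembly factor TPX2 from 289.7 ± 4.96 to 42.3 ± 2.02 CPM and the survivin gene BIRC5 from 145 ± 1.79 to 18.2 ± 0.853 CPM. Among repair genes BRCA1 fell from 204 ± 7.04 to 19.3 ± 1.45 CPM, FANCI of the Fanconi pathway from 165 ± 7.42 to 12.7 ± 0.865 CPM and the nuclease EXO1 from 91.4 ± 6.49 to 9.09 ± 1.04 CPM. In bulk RNA a lower share of cells in S phase or mitosis and less RNA of these genes per cell cannot be told apart.

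Most genes of the E2F family were lower as well. Of 16 tested genes of the E2F, RB and DP family 12 were lower and 2 higher in K148R cells (median -0.94), with 1 higher without K148Q replicate 1, K148Q replicate 2 or K148R replicate 3. E2F1, an activator of S phase genes, was at 81.3, 79.6 and 68.2 CPM in the K148Q libraries and 6.48, 8.72 and 5.54 CPM in the K148R libraries (log2 fold change -3.47, SE 0.148, adjusted p = 6.5e-09). Its relatives E2F2 and E2F8 fell from 32.2 ± 2.43 to 2.49 ± 0.228 CPM and from 34.1 ± 1.49 to 1.53 ± 0.247 CPM. The pocket proteins, which restrain E2F, were split: RB1 rose from 107 ± 29 to 184 ± 13.8 CPM, whereas RBL1 fell from 102 ± 16.6 to 25.4 ± 0.646 CPM and RBL2 from 167 ± 12.8 to 124 ± 5.31 CPM. RB1 was at 94.1, 87 and 140.4 CPM in the K148Q libraries, highest in replicate 3, and at 172, 180.3 and 199 CPM in the K148R libraries, all above it.

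Among 19 cyclins, cyclin-dependent kinases and their inhibitors 13 were lower and 5 higher (median -1.28). The inhibitors differed in both directions: 4 of the 5 members that rose are inhibitors, and so are 3 of those that fell. CDKN1A (chromosome 6, 36676460 to 36687339), the inhibitor p21, was at 114, 118 and 101 CPM in K148Q and 379, 372 and 347 CPM in K148R libraries (log2 fold change 1.72, SE 0.0727, adjusted p = 6.1e-09). CDKN1C rose from 1.91 ± 0.397 to 11.3 ± 0.632 CPM, CDKN1B from 83.7 ± 12.8 to 114 ± 2.47 CPM and CDKN2B from 2.09 ± 0.781 to 4.28 ± 0.699 CPM, and the D-type cyclin CCND2 rose from 34.4 ± 2.67 to 54.1 ± 2.26 CPM. CDKN2C, an inhibitor of CDK4 and CDK6, was at 71.6, 73.4 and 74.5 CPM in K148Q and 10.6, 11.6 and 8.89 CPM in K148R libraries (log2 fold change -2.82, SE 0.106, adjusted p = 2.6e-09). CDKN2A fell from 55.6 ± 5.42 to 31.5 ± 1.21 CPM and CDKN2D from 22.1 ± 1.28 to 16.9 ± 1.64 CPM. Among cyclins and kinases of the G1 to S transition, CCNE2 fell from 68.8 ± 19.2 to 3.2 ± 0.85 CPM, CCNE1 from 36.4 ± 1.29 to 9.92 ± 0.206 CPM, CCND1 from 9.96 ± 0.531 to 1.47 ± 0.171 CPM and the activating phosphatase CDC25A from 77.6 ± 1.97 to 5.6 ± 0.957 CPM. The kinases CDK2, CDK4 and CDK6 fell by 3.05, 1.28 and 1.33 on the log2 scale, and SKP2, which marks CDKN1B for degradation, from 65.2 ± 8.94 to 12 ± 0.929 CPM.

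Promoter sequences of these genes were searched for short patterns in the RefSeq table for GRCh38.p14, which gives 300 bases around the start of each gene, 250 before and 50 from it, for 27195 genes. The E2F pattern was any of the letters TTTGGCGC, TTTCCCGC, TTTGCCGC or TTTCGCGC on either strand. It occurred in 22 of the 48 replication genes with a promoter in the table (45.8%), against 3.34% of all promoters and 5.6% of those of tested genes. The CHR pattern TTTGAA, the cell cycle homology region bound by MuvB complexes, was present in 34 of 48 mitosis genes (70.8%) against 15.4% of all promoters and 9.77% of those of tested genes. CCAAT, the NF-Y element, was in 72.9% of them, against 35.7% of all promoters and 37.1% of those of tested genes. Over genes called at least 4-fold lower, whichever list they belong to, 14.8% held the E2F pattern, 21.5% the CHR and 46.2% CCAAT. Over genes at least 4-fold higher the shares were 4.25%, 15.1% and 35%. A match is a description of letters and not evidence of binding in these cells.

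Promoters of 3 genes are shown because these genes were described above and hold a match, each from 190 bases before the start to 30 bases from it, 5′ to 3′ on the strand of the gene, with the matched pattern in capitals. They are MCM6 (chr2:135876414-135876633, minus strand), with 4 E2F matches in 2 places, where matches on both strands overlap, CDC6 (chr17:40287689-40287908, plus strand), with 1 E2F match, and MKI67 (chr10:128126394-128126613, minus strand), with 2 CHR matches.
MCM6: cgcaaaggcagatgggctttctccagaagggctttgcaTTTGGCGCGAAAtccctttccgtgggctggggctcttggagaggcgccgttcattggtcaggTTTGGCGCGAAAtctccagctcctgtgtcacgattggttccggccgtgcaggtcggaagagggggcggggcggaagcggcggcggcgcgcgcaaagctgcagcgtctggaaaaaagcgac
CDC6: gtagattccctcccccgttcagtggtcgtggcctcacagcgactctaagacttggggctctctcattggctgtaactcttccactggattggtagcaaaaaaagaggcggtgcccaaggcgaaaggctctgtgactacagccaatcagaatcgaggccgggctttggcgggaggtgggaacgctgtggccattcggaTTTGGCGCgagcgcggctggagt
MKI67: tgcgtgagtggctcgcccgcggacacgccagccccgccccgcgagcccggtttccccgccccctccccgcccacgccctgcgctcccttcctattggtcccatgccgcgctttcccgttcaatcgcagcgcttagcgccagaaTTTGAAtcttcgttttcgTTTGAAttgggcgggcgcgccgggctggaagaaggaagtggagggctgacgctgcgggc

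**Figure D2:**
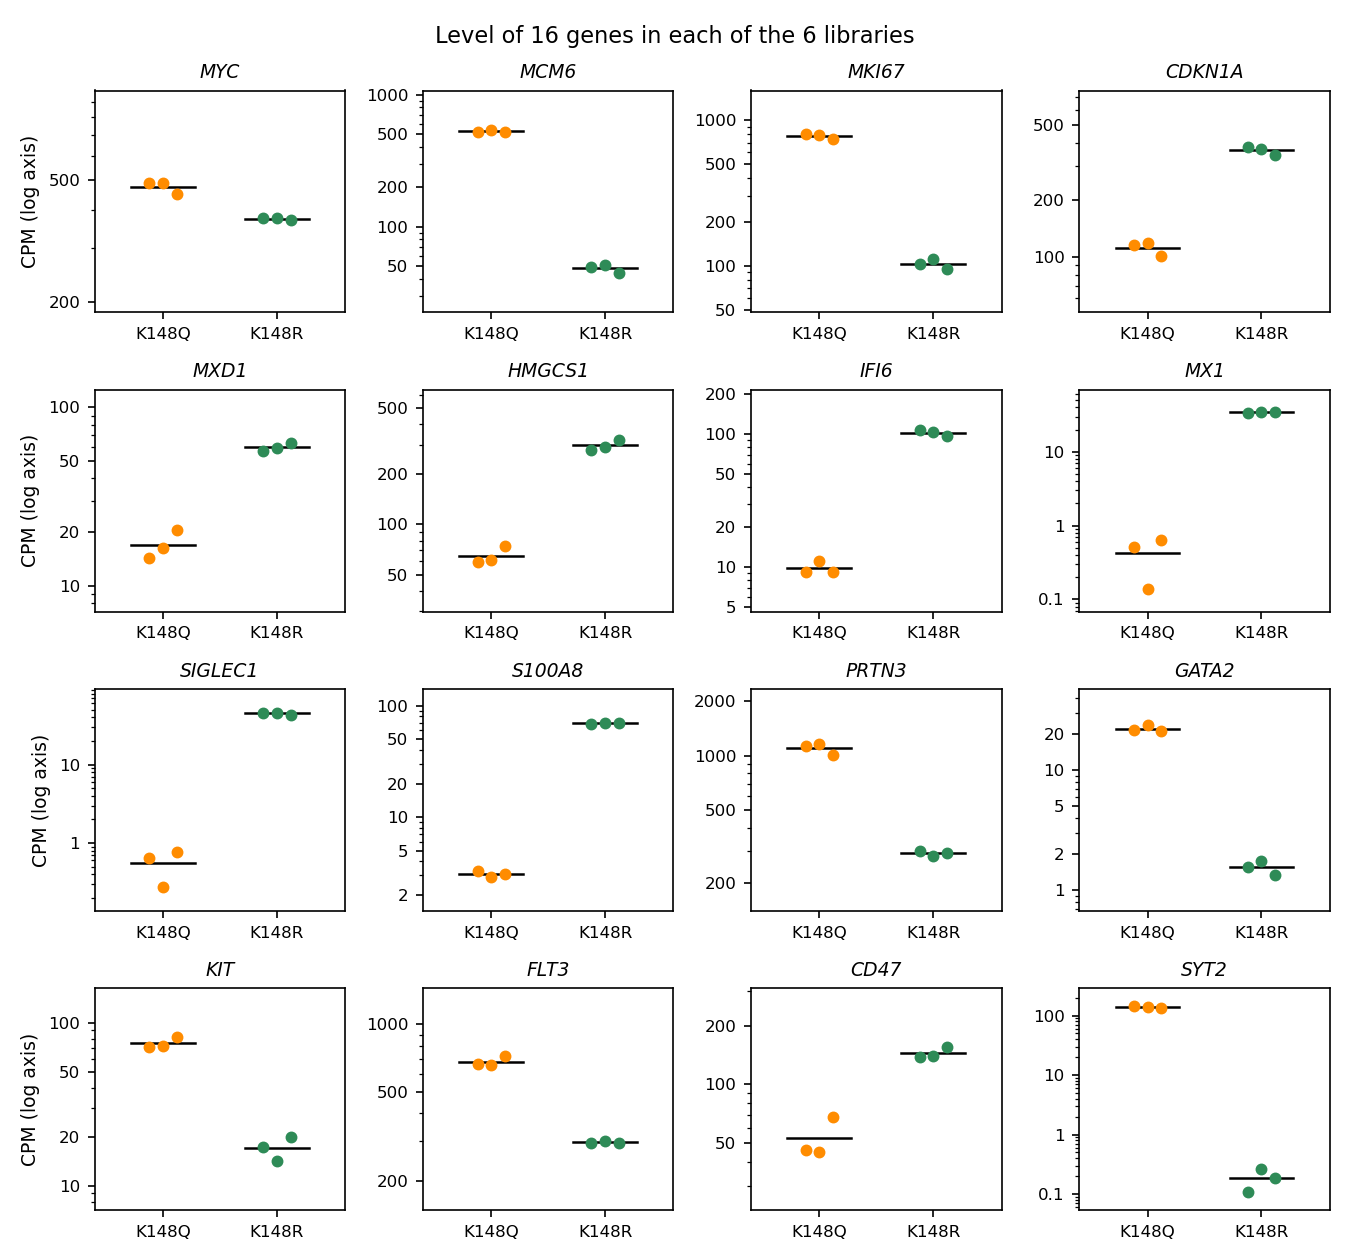
Each panel gives the level of 1 gene in CPM on a log axis, with a point per library and a bar at the mean of the 3 libraries of a genotype. In all 16 panels the K148Q points and the K148R points form ranges that do not overlap, from MYC with 476 and 373 CPM to SYT2 with 139 and 0.186 CPM. Ranges did not overlap for 72.0% of all tested genes. The panels are a selection of genes named in the text, so their separation is no result about them. SYT2 and MCM6 were named by a rule that asks for no overlap. MX1, SIGLEC1 and SYT2 passed the filter through 1 genotype alone.

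Genes of nucleotide synthesis were mostly lower too. Of 34 genes of nucleotide and one-carbon synthesis 30 were lower and 2 higher in K148R cells (median -1.08). The subunits of ribonucleotide reductase fell, RRM1 from 349 ± 14.3 to 47.8 ± 2.38 CPM and RRM2 from 361 ± 25.7 to 33.9 ± 2.7 CPM, and so did thymidylate synthase, TYMS, from 363 ± 18.4 to 39.4 ± 2.13 CPM. Among the rises, MTHFD2, a mitochondrial enzyme of the folate cycle, was at 119, 122 and 151 CPM in the K148Q libraries and 274, 274 and 282 CPM in the K148R libraries (log2 fold change 1.08, SE 0.0868, adjusted p = 9.9e-07).

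Growth genes that MYC is known to activate were moderately lower. Of 55 genes of ribosome biogenesis and MYC-driven growth 38 were lower and 3 higher (median -0.40). CAD, which starts pyrimidine synthesis, was at 351, 352 and 304 CPM in K148Q and 108, 101 and 97.9 CPM in K148R libraries (log2 fold change -1.71, SE 0.0752, adjusted p = 8.1e-09). LYAR, a nucleolar protein, fell from 72.3 ± 3.73 to 28.2 ± 1.24 CPM, TSR1, needed for the small ribosomal subunit, from 211 ± 4.05 to 125 ± 1.59 CPM, and LDHA, lactate dehydrogenase, from 907 ± 43.7 to 545 ± 13.6 CPM. All but 2 of the 38 falls were smaller than 2-fold, and the 3 higher became 1 without K148Q replicate 2, K148R replicate 2 or K148R replicate 3. The 3 higher included ODC1, the polyamine enzyme and a classical MYC target, with 343 ± 6.06 and 376 ± 5.76 CPM, and RRN3, a factor of ribosomal RNA transcription, with 68.3 ± 6.07 and 81.3 ± 1.87 CPM. ODC1 did not pass once any 1 library other than K148Q replicate 3 was left out, nor RRN3 without K148Q replicate 2, K148R replicate 2 or K148R replicate 3. The canonical E-box CACGTG was found in 22 of the 49 promoters of this list (44.9%) against 7.45% of all promoters and 10.4% of those of tested genes. It was in 9.59% of the promoters of all genes called lower and 11.1% of those called higher. The promoter of LDHA (chr11:18394373-18394592, plus strand), the list member with 2 matches among those named here, is shown over the same window with both in capitals.
LDHA: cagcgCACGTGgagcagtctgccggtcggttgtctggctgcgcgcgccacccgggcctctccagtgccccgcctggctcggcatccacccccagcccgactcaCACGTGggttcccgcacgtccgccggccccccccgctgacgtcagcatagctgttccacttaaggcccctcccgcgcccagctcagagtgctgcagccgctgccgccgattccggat

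Genes of the ribosome itself differed between cytosol and mitochondrion. Of 78 cytosolic ribosomal protein genes 56 were higher and 0 lower in K148R cells, each by less than 2-fold (median 0.28), among them RPL10 from 1127 ± 108 to 1884 ± 24.9 CPM and RPS14 from 757 ± 44 to 1192 ± 32.1 CPM. With a correction of each library for gene GC content and length the counts were 64 higher and 4 lower, and without K148Q replicate 3 they were 58 and 4. Mitochondrial ribosomal proteins went the other way, with 43 of 58 lower and 4 higher, the latter 0 to 4 with any 1 library left out (median -0.45), such as MRPL33 from 141 ± 10.2 to 68.7 ± 5.82 CPM. Subunits of oxidative phosphorylation were lower in 49 of 73 cases and higher in 3 (median -0.28). ATP5C1, a subunit of ATP synthase, fell from 268 ± 12.6 to 129.5 ± 5.98 CPM and UQCRC2 of complex III from 268 ± 3.7 to 142 ± 6.46 CPM, while NDUFA12 of complex I rose from 79.2 ± 3.59 to 112 ± 6.12 CPM. Proteasome subunits were lower in 22 of 31 cases and higher in 2, or 1 without K148R replicate 2 (median -0.31, or -0.20 with the GC content and length correction), with PSMB5 falling from 112 ± 5.76 to 58.1 ± 0.426 CPM. Splicing factors were lower in 29 of 41 cases (median -0.33), such as SNRPA from 149 ± 10.4 to 67.4 ± 4.65 CPM, and higher in 7, such as HNRNPK from 857 ± 32.9 to 1266 ± 29.3 CPM. The 7 splicing factors higher became 4 without K148R replicate 2, and also without K148Q replicate 1 or 2.

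Members of the network of MYC partners differed in both directions, with a share higher near the 33.4% of all tested genes. Of 24 tested members 8 were higher and 11 lower (median -0.14, or -0.29 with the GC content and length correction). MXD1 (chromosome 2, 69897688 to 69942945), which pairs with MAX and represses MYC targets, was at 14.3, 16.3 and 20.5 CPM in the K148Q libraries and 57.2, 59.2 and 62.7 CPM in the K148R libraries (log2 fold change 1.81, SE 0.124, adjusted p = 2.8e-07). Its relatives MXD4 and MXI1 rose from 44.8 ± 4.68 to 112 ± 4.88 CPM and from 57 ± 5.14 to 94 ± 1.76 CPM, and the MYC paralog MYCL from 4.94 ± 0.867 to 24.6 ± 2.9 CPM. Genes for proteins that stabilise or assist MYC were among the falls: the kinase AURKA fell from 93.1 ± 1.58 to 20.4 ± 0.915 CPM, KIAA1524, an inhibitor of the phosphatase that destabilises MYC, from 53.5 ± 12 to 5.91 ± 1.21 CPM, and the ATPase RUVBL1 from 177 ± 12.2 to 58.8 ± 0.724 CPM. AURKA and KIAA1524 are also genes of dividing cells.

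**Figure D3:**
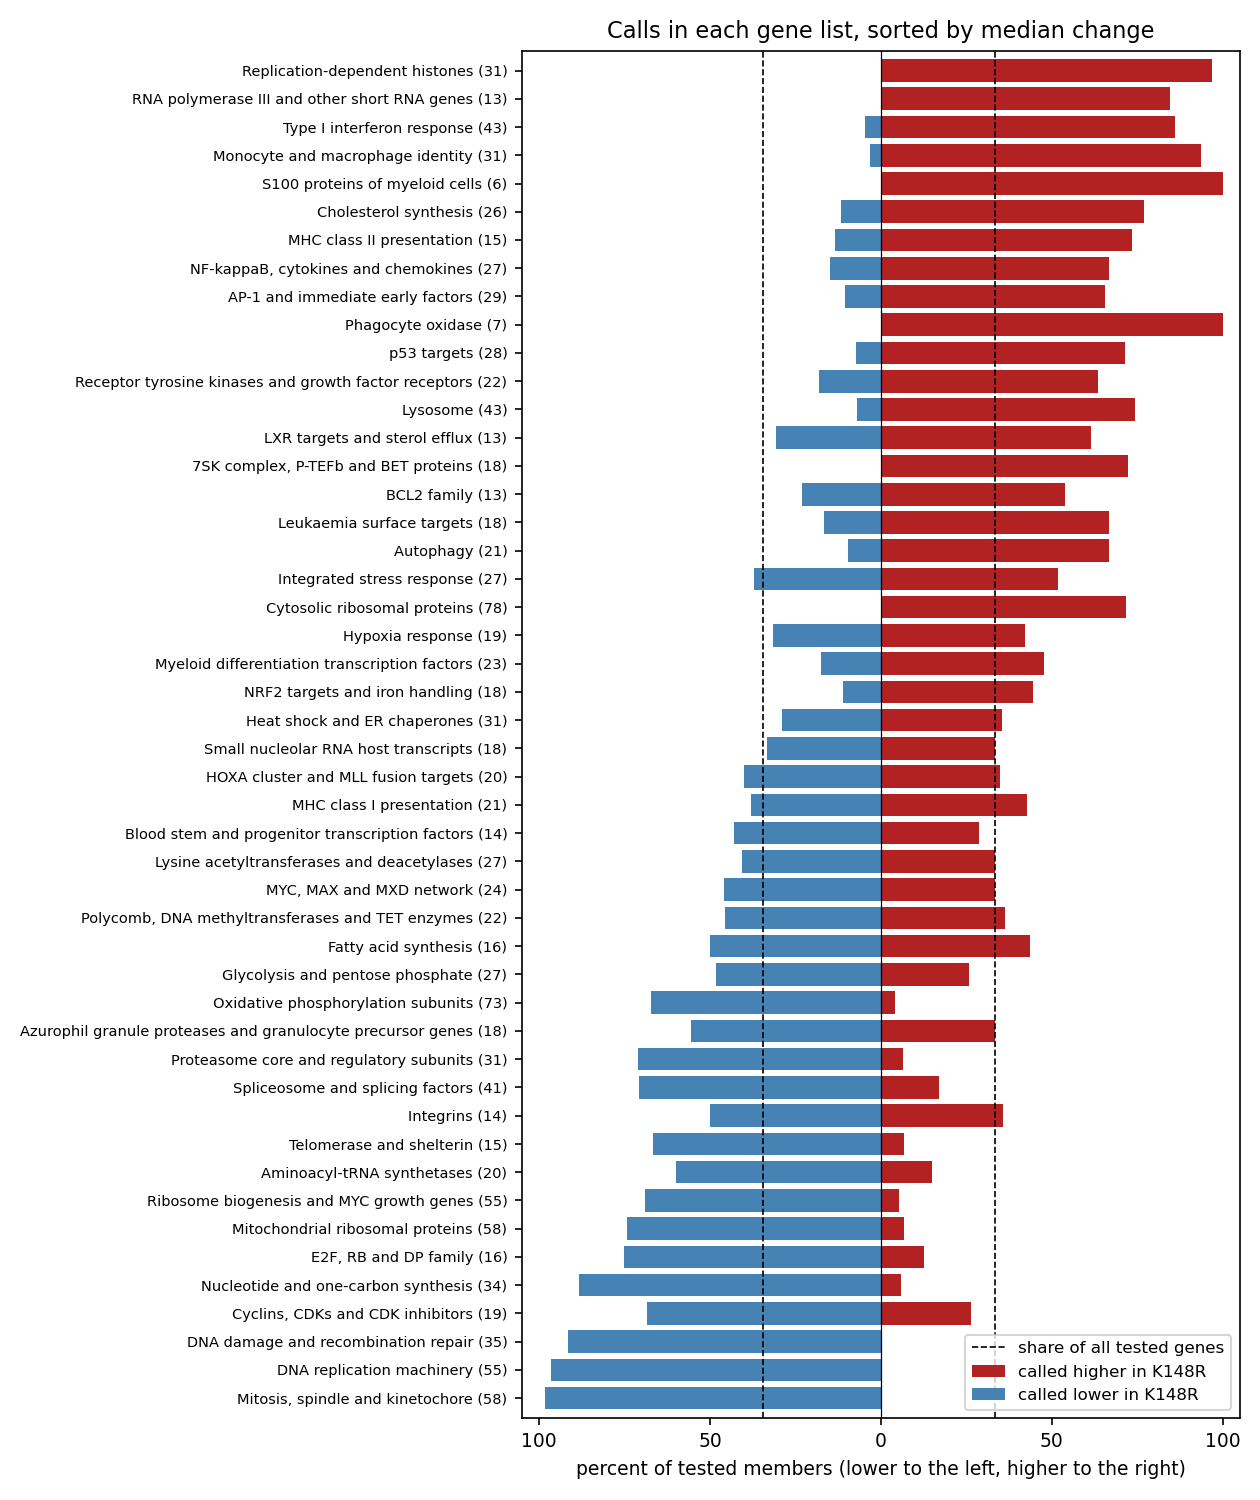
Bars give the percent of tested members of each gene list called higher (red, to the right) or lower (blue, to the left) in K148R cells, with the number tested in brackets and the lists sorted by median log2 fold change. Dashed lines mark the shares over all tested genes, 33.4% higher and 34.6% lower, and the list of mitosis genes at the bottom has 57 of 58 members lower.

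Targets of p53 were mostly higher in K148R cells. Of 28 tested members 20 were higher and 2 lower (median 0.75). Of the 28, 1, SPATA18, reached the filter through the K148R libraries alone. Of the 27 that reached it in all 6 libraries 19 were higher and 2 lower (median 0.75). Besides CDKN1A, BTG2, an antiproliferative gene, was at 28.9, 26.6 and 26.7 CPM in K148Q and 155, 160.2 and 152 CPM in K148R libraries (log2 fold change 2.50, SE 0.0723, adjusted p = 4.6e-10). SPATA18, a gene of mitochondrial quality control, rose from 0.109 ± 0.0349 to 6.47 ± 0.111 CPM and the DNA damage sensor XPC from 76.2 ± 4.57 to 128 ± 4.7 CPM, while DDB2 fell from 66.3 ± 4.13 to 41 ± 1.03 CPM and CCNG1 from 143 ± 41.9 to 75.9 ± 15.4 CPM. In the BCL2 family, where proteins that promote and prevent apoptosis bind each other, 7 of 13 tested genes, of 16 in the table, rose and 3 fell. Both kinds were among the rises. The death-promoting genes BMF, BIK, BBC3 and BCL2L11 rose from 38.5 ± 2.4 to 214 ± 12.8 CPM, from 13 ± 0.708 to 36.5 ± 2.51 CPM, from 14.7 ± 1.09 to 29.5 ± 2.85 CPM and from 48.6 ± 3.08 to 74.5 ± 4.95 CPM, and the survival genes BCL2L1 and MCL1 from 32.5 ± 2.98 to 50.5 ± 1.77 CPM and from 195 ± 32.6 to 266 ± 13.7 CPM. BCL2, the target of venetoclax, fell from 178 ± 20.8 to 140.1 ± 3.63 CPM, and BAD, which promotes apoptosis, from 23.6 ± 2.85 to 9.6 ± 1.49 CPM.

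Of the monocyte and macrophage genes that were tested, most were higher in K148R cells. Of 43 markers with a row, 31 passed the filter on low counts, of which 29 were higher and 1 lower (median 1.72). Of these 31, 8 reached the filter through the K148R libraries alone, and of the 23 that reached it in all 6 libraries 21 were higher and 1 lower (median 1.34). SIGLEC1 (chromosome 20, 3686970 to 3707128), the macrophage receptor CD169, was at 0.652, 0.273 and 0.762 CPM in the K148Q libraries and 45.8, 45.5 and 42.6 CPM in the K148R libraries (log2 fold change 6.28, SE 0.194, adjusted p = 7.3e-10). SIGLEC1 is among the 8 that passed through the K148R libraries alone, so it had to differ. The chemokine receptor CX3CR1 rose from 2.02 ± 0.491 to 85.7 ± 0.588 CPM and AIF1, an actin-binding protein of macrophages, from 111 ± 2.58 to 395 ± 13.8 CPM. LYZ, which encodes lysozyme, and CSF1R, the receptor of the macrophage growth factor, belong to the list of monocyte markers used to check the line and rose from 495 ± 72.5 to 1626 ± 20.8 CPM and from 68 ± 8.25 to 165 ± 4.5 CPM. The one member lower was FCGR1A, the high-affinity Fc receptor, from 71.7 ± 7.38 to 36.3 ± 5.42 CPM. The 7 monocyte markers of that check, most of whose level is LYZ, summed to 537 to 647 CPM in K148Q and 1893 to 1924 CPM in K148R libraries. Defining markers of the classical blood monocyte stayed near 0: over the K148R libraries CD14 had 17 counts, FCN1 8 and VCAN 3, and each had 0 in K148Q.

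Calcium-binding S100 proteins of myeloid cells were tested in 6 of 9 cases, and all 6 were higher (median 1.35). S100A8 was at 3.26, 2.87 and 3.05 CPM in K148Q and 68.4, 70.6 and 69.7 CPM in K148R libraries (log2 fold change 4.50, SE 0.104, adjusted p = 1.6e-10), and its partner S100A9 rose from 7.27 ± 1.03 to 51.1 ± 2.22 CPM. All 7 genes of the phagocyte oxidase, the enzyme of the respiratory burst, were higher (median 0.83). Of these 7, 1 reached the filter through the K148R libraries alone and had to differ. The 6 that reached it in all 6 libraries were all higher (median 0.68). CYBB, the catalytic subunit of the oxidase, is the member that passed through K148R alone. It was at 0.521, 0.273 and 0.508 CPM in K148Q and 15, 14.2 and 17.4 CPM in K148R libraries (log2 fold change 5.13, SE 0.221, adjusted p = 6.8e-09). Dendritic cell markers passed the filter in 4 of 13 cases and all 4 were higher, TCF4 from 4.08 ± 0.44 to 84 ± 2.78 CPM, FCER1A from 1.03 ± 0.102 to 28.3 ± 1.99 CPM, NRP1 from 14 ± 1.67 to 89.9 ± 2.89 CPM and CLEC10A from 28.7 ± 2.58 to 103 ± 6.01 CPM. The summed level of the dendritic list was 47.4 to 48.6 CPM in K148Q and 303 to 312 CPM in K148R libraries.

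Genes of the granulocyte precursor were divided. Of 26 genes of azurophil granules and granulocyte precursors with a row, 18 were tested, of which 10 were lower and 6 higher (median -0.28). Of the 18, 2 reached the filter through the K148R libraries alone and 1 through the K148Q libraries alone. Of the 15 that reached it in all 6 libraries 4 were higher and 9 lower (median -0.40). PRTN3 (chromosome 19, 840960 to 848175), proteinase 3, was at 1134, 1167 and 1004 CPM in the K148Q libraries and 300.02, 279.6 and 290.1 CPM in the K148R libraries (log2 fold change -1.93, SE 0.0667, adjusted p = 1.5e-09). SRGN, the proteoglycan that packs granule proteases, was at 6467, 6593 and 8011 CPM and 1704, 1691 and 1719.97 CPM (log2 fold change -2.04, SE 0.0776, adjusted p = 4.3e-09). The elastase gene ELANE fell from 237 ± 24.7 to 102 ± 7.33 CPM and the related protease PRSS57 from 337 ± 44.7 to 86.8 ± 2.83 CPM. In the same list CTSG, cathepsin G, rose from 139 ± 8.13 to 337 ± 15.2 CPM, as did the antimicrobial peptide CAMP, from 0.0662 ± 0.0652 to 3.48 ± 0.896 CPM. CAMP reached the filter through the K148R libraries alone, so it had to differ.

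Transcription factors of the lineage were mixed. Of 23 tested factors of myeloid differentiation 11 were higher and 4 lower (median 0.24), and corrected for GC content and length 8 were higher and 9 lower (median 0.07). Without K148Q replicate 2, 2 were lower. Of the 23, 3 reached the filter through the K148R libraries alone, and of the 20 that reached it in all 6 libraries 8 were higher and 4 lower (median 0.08). RUNX3 rose from 132 ± 9.91 to 376 ± 17.8 CPM and the repressor BCL6 from 0.197 ± 0.00735 to 12.9 ± 2.67 CPM. BCL6 is among the 3 that passed through the K148R libraries alone, so it had to differ. CEBPB fell from 49.3 ± 2.13 to 30.6 ± 1.75 CPM. Of 22 factors of blood stem and progenitor cells 14 were tested, of which 4 were higher, or 7 without K148Q replicate 3, and 6 lower. Of the 14, 1, HLF, reached the filter through the K148R libraries alone. Of the 13 that reached it in all 6 libraries 3 were higher and 6 lower (median -0.16). GATA2 (chromosome 3, 128479427 to 128493185), a factor of stem and progenitor cells, was at 21.7, 23.8 and 21.1 CPM in K148Q and 1.55, 1.74 and 1.34 CPM in K148R libraries (log2 fold change -3.84, SE 0.15, adjusted p = 3.3e-09). SOX4 went the other way, from 21 ± 3.11 to 83.4 ± 1.22 CPM, and HLF, a stem cell factor, had 1 count in K148Q and 3.59, 3.96 and 2.56 CPM in the K148R libraries.

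The targets of the MLL fusion divided too, with 7 higher and 8 lower among 20 tested of 26 in the table (median -0.01), close to the background. HOXA10 and HOXA11, homeobox genes of the cluster that the fusion drives, rose from 78.8 ± 3.02 to 126 ± 0.645 CPM and from 11.4 ± 0.649 to 30.9 ± 0.552 CPM. HOXA9, a member well studied in this leukaemia, was picked after seeing its values: it was at 8.6, 8.81 and 6.92 CPM in K148Q and 10.6, 11.6 and 9.68 CPM in K148R libraries (log2 fold change 0.39, SE 0.14, adjusted p = 0.03), and did not pass without K148Q replicate 3, K148R replicate 1 or K148R replicate 2. MEF2C, a transcription factor of this program, fell from 65 ± 8.3 to 36.6 ± 4.02 CPM. FLT3 (chromosome 13, 28003274 to 28100592), a receptor tyrosine kinase often mutated in myeloid leukaemia, was at 663, 655 and 724 CPM in the K148Q libraries and 295, 301 and 295 CPM in the K148R libraries (log2 fold change -1.20, SE 0.0568, adjusted p = 1.5e-08). KIT, the stem cell factor receptor, was at 71.4, 72 and 81.7 CPM and 17.3, 14.2 and 19.9 CPM (log2 fold change -2.13, SE 0.121, adjusted p = 6.1e-08). Other receptors rose: of 22 tested of 25 receptor tyrosine kinases and growth factor receptors 14 were higher and 4 lower (median 0.68), among them CSF2RB, the shared chain of the receptors for GM-CSF and related cytokines, from 41.4 ± 1.42 to 116 ± 4.36 CPM, IL10RA from 10.1 ± 0.684 to 44 ± 1.67 CPM, IL6R from 143 ± 1.73 to 268 ± 9.15 CPM and the efferocytosis receptor MERTK from 0.525 ± 0.0606 to 7.68 ± 0.907 CPM. Of the 22, 2 reached the filter through the K148R libraries alone and had to differ, MERTK among them. Of the 20 that reached it in all 6 libraries 12 were higher and 4 lower (median 0.63).

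Surface proteins considered as targets in leukaemia were higher in 12 of 18 tested cases of 20 and lower in 3 (median 0.38), with CD59 and CD38 at the ends. Of the 18, 2 reached the filter through the K148R libraries alone, CD59 among them, and 1, CD38, through the K148Q libraries alone. Of the 15 that reached it in all 6 libraries 10 were higher and 2 lower (median 0.33). CD47, the signal that inhibits phagocytosis, was at 46.1, 45.2 and 67.8 CPM in K148Q and 138, 139 and 156 CPM in K148R libraries (log2 fold change 1.44, SE 0.146, adjusted p = 1.7e-05). CD70, a ligand of the TNF family, rose from 8.52 ± 1.61 to 113 ± 6.32 CPM and the hyaluronan receptor CD44 from 316 ± 20.2 to 427 ± 9.5 CPM. CD33, an antibody target on myeloid cells, was at 173, 181 and 162 CPM and 159, 162 and 149 CPM (log2 fold change -0.14, SE 0.067, adjusted p = 0.093), and passed as lower only without K148Q replicate 3 among the fits that left out a library. Integrins, the receptors for matrix and counter-receptors, differed in both directions, with 5 of 14 tested of 17 higher and 7 lower. ITGB7 rose from 46 ± 5.23 to 439.98 ± 9.88 CPM, ITGA2B, the platelet integrin, from 0.506 ± 0.164 to 17.9 ± 1.94 CPM and ITGAM, the monocyte integrin CD11b, from 11 ± 0.959 to 28.7 ± 0.917 CPM. ITGA2B reached the filter through the K148R libraries alone. Of the 13 integrins that reached it in all 6 libraries 4 were higher and 7 lower. ITGA6, a laminin receptor, fell from 32.4 ± 4.47 to 1.26 ± 0.265 CPM, ITGA4 from 190.3 ± 38.8 to 74.1 ± 5.32 CPM and ITGAL, which pairs with ITGB2 in the main leukocyte integrin, from 2053 ± 134 to 997 ± 25.8 CPM. ITGB7 and ZNF740 share exon bases on opposite strands, so their reads cannot be told apart without the strand of counting.

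Genes of the type I interferon response, which cells turn on against viruses, were mostly higher in K148R cells where tested. Of 44 genes with a row, 43 were tested, of which 37 were higher and 2 lower (median 2.11), 30 by at least 2-fold. Of the 43, 13 reached the filter through the K148R libraries alone, and of the 30 that reached it in all 6 libraries 24 were higher and 2 lower (median 1.27). MX1 (chromosome 21, 41420304 to 41459214), an antiviral GTPase, was at 0.521, 0.137 and 0.635 CPM in the K148Q libraries and 33.8, 34.7 and 34.2 CPM in the K148R libraries (log2 fold change 6.27, SE 0.229, adjusted p = 2.1e-09). MX1 is among the 13 that passed through the K148R libraries alone, so it had to differ. IFI6, an antiviral membrane protein, was at 9.25, 11.1 and 9.27 CPM and 108, 103 and 96.9 CPM (log2 fold change 3.38, SE 0.0997, adjusted p = 5.4e-10). The RNA-sensing synthetase OAS2 rose from 3.24 ± 0.39 to 49.1 ± 2.85 CPM. Of the 2 that were lower, IFITM2, from 281 ± 20.9 to 212 ± 8.85 CPM, is close in sequence to its neighbours. The other, IFI35, from 25 ± 2.45 to 21 ± 0.686 CPM (log2 fold change -0.26, SE 0.105, adjusted p = 0.049), did not pass once any 1 library other than K148Q replicate 3 was left out. Restricted to genes with at least 10 counts in every library, the list had 24 members higher (median 1.29), since members near 0 in K148Q cells are then not tested.

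The interferon-stimulated response element was searched as GAAANNGAA on either strand. It occurred in 23 of the 34 promoters of this list in the table (67.6%) against 8.3% of all promoters and 6.64% of those of tested genes. Over all genes called at least 4-fold higher the share was 11.5%, and 4.71% over those at least 4-fold lower. The promoters of IFI6 (chr1:27672163-27672382, minus strand) and MX1 (chr21:41420368-41420587, plus strand) are shown over the window used above, with 3 and 2 matches in capitals, which overlap in MX1 and lie just after its start.
IFI6: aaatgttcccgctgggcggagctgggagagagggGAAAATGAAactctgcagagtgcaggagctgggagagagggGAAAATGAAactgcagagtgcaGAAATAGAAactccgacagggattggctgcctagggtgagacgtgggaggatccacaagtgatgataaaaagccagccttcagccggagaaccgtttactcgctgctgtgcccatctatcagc
MX1: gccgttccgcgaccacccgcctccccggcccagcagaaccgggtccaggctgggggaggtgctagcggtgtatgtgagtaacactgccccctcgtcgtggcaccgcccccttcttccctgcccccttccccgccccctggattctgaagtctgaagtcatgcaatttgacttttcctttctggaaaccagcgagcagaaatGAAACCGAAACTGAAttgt

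**Figure D4:**
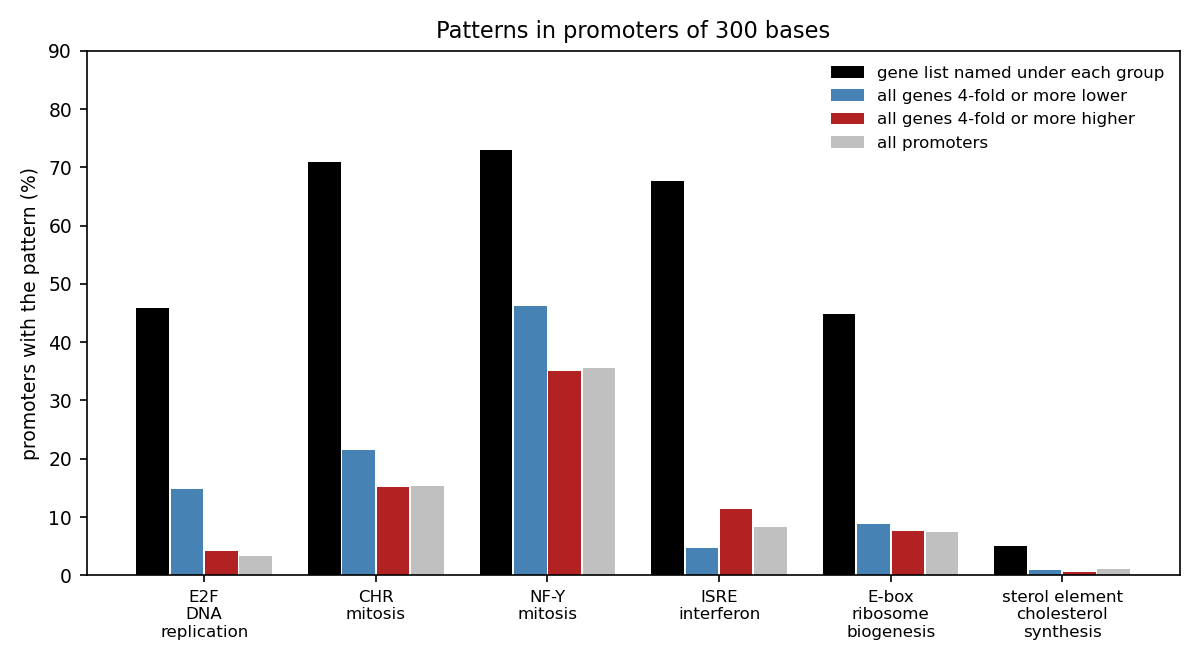
Bars give the percent of RefSeq promoters of 300 bases that hold each pattern on either strand, for the gene list named under the group (black), for all genes called at least 4-fold lower (blue) or higher (red) in K148R cells, and for all promoters (grey). The E2F pattern is in 45.8% of replication promoters, 14.8% of those of genes at least 4-fold lower and 3.34% of all.

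Antigen presentation by MHC class II was mostly higher, with 11 of 15 tested genes, of 17 in the table, higher and 2 lower (median 0.95). Of the 13 that reached the filter in all 6 libraries 10 were higher and 2 lower (median 0.95). CIITA, the master activator of these genes, was at 11.2, 13.5 and 11.3 CPM in K148Q and 48.2, 40.6 and 37.6 CPM in K148R libraries (log2 fold change 1.81, SE 0.126, adjusted p = 3.1e-07). The invariant chain CD74 rose from 471 ± 41.9 to 1051 ± 33.1 CPM, HLA-DRA from 96.9 ± 3.75 to 199 ± 4.28 CPM and the peptide loader HLA-DMA from 16.5 ± 0.712 to 64.6 ± 6.19 CPM, whereas RFXAP, a factor that binds their promoters, fell from 10.4 ± 3.3 to 5.16 ± 1.21 CPM. For MHC class I 9 of 21 genes were higher and 8 lower. The light chain B2M rose from 798 ± 91 to 1833 ± 112 CPM and the heavy chain gene HLA-E from 234 ± 12.2 to 429 ± 10.6 CPM, while the peptide transporter TAP2 fell from 81.4 ± 3.39 to 46.1 ± 1.39 CPM and the proteasome activator PSME2 from 203 ± 19.99 to 113 ± 1.43 CPM.

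Among tested inflammatory and immediate early genes, more were higher than lower. Of 38 genes of NF-kappaB, cytokines and chemokines 27 were tested, of which 18 were higher and 4 lower (median 0.90). Of the 27, 3 reached the filter through the K148R libraries alone, and of the 24 that reached it in all 6 libraries 15 were higher and 4 lower (median 0.71). CXCL8, a neutrophil attractant, was at 1.89, 2.32 and 2.73 CPM in the K148Q libraries and 64.5, 63 and 70.8 CPM in the K148R libraries (log2 fold change 4.83, SE 0.134, adjusted p = 3.4e-10). IL1B rose from 3.02 ± 0.0749 to 26.9 ± 1.24 CPM and CXCL16 from 0.919 ± 0.0343 to 16.5 ± 0.695 CPM, while CCL5 fell from 50.8 ± 3.77 to 6.77 ± 0.526 CPM. Of 29 AP-1 and immediate early genes 19 were higher and 3 lower (median 0.83, or 0.52 over members with at least 10 counts in every library). Of the 29, 4 reached the filter through the K148R libraries alone, and of the 25 that reached it in all 6 libraries 15 were higher and 3 lower (median 0.49). JUN was at 1.96, 2.53 and 1.27 CPM and 53.4, 50.4 and 51.6 CPM (log2 fold change 4.76, SE 0.168, adjusted p = 1.7e-09), and FOS and FOSB rose from 13.4 ± 1.35 to 61.9 ± 0.935 CPM and from 1.77 ± 0.192 to 20.3 ± 1.14 CPM.

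**Figure D5:**
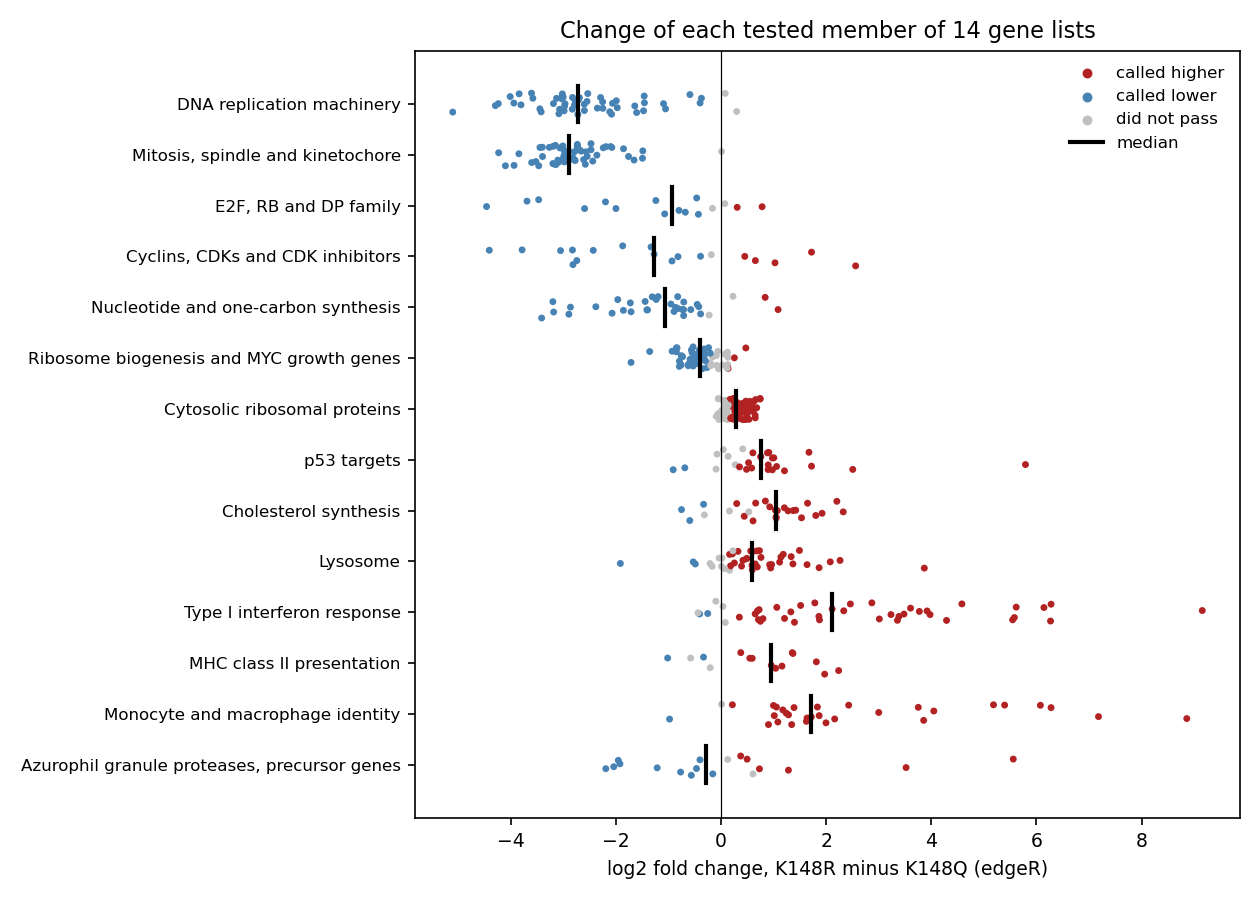
Each point is a tested member of 1 of 14 gene lists placed at its log2 fold change (K148R minus K148Q), red where called higher, blue where called lower and grey where it did not pass, with a black bar at the list median. Medians run from -2.90 for mitosis to 2.11 for the interferon response, and the ribosomal protein genes form a narrow band at 0.28.

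Genes of cholesterol synthesis were mostly higher in K148R cells, with 20 of 26 genes higher and 3 lower (median 1.04). HMGCS1 (chromosome 5, 43289395 to 43313512), which makes the precursor of mevalonate, was at 59.8, 61.1 and 73.8 CPM in K148Q and 282, 292 and 323 CPM in K148R libraries (log2 fold change 2.20, SE 0.0919, adjusted p = 5.6e-09). LSS, which makes lanosterol, rose from 48.2 ± 3.5 to 182 ± 7.85 CPM and the sterol reductase TM7SF2 from 13.5 ± 0.519 to 67.8 ± 2.35 CPM. Falls were seen in EBP from 65.6 ± 6.5 to 38.9 ± 2.22 CPM, PMVK from 43.4 ± 4.47 to 28.7 ± 3.64 CPM and FDPS from 217 ± 8.31 to 172 ± 6.08 CPM. The sterol element TCACNCCAC was in 1 of 20 promoters of this list (5%) and in 1.15% of all promoters and 0.998% of those of tested genes. No match says only that these letters are not in this window. Genes of sterol efflux under the receptor LXR rose in 8 of 13 tested cases of 15 and fell in 4 (median 0.51, or 0.29 over members with at least 10 counts in every library). Of the 13, 3 reached the filter through the K148R libraries alone, and of the 10 that reached it in all 6 libraries 5 were higher and 4 lower (median 0.27). The exporter ABCA1 rose from 16.8 ± 2.19 to 69.4 ± 2.25 CPM, its relative ABCG1 had 2 counts in K148Q and 7.61, 5.5 and 6.52 CPM in the K148R libraries, and APOC1 fell from 19.2 ± 1.17 to 1.51 ± 0.149 CPM. ABCG1 is among the 3 that passed through the K148R libraries alone, so it had to differ.

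Lysosomal genes were higher in 32 of 43 tested cases of 46 and lower in 3 (median 0.59), and the lower ones numbered 5 without K148Q replicate 3. PSAP, the precursor of the saposins, was at 285, 293 and 251 CPM in the K148Q libraries and 1035, 1008 and 975 CPM in the K148R libraries (log2 fold change 1.86, SE 0.0667, adjusted p = 1.9e-09). The protease CTSH rose from 3.81 ± 0.448 to 55.6 ± 1.73 CPM and the membrane protein LAMP1 from 230.1 ± 2.51 to 498 ± 7.01 CPM, while the glucuronidase GUSB fell from 224 ± 6.31 to 59.2 ± 3.79 CPM. Autophagy genes rose in 14 of 21 cases and fell in 2 (median 0.36). The cargo receptor SQSTM1 rose from 189.5 ± 14.2 to 457 ± 25.6 CPM and GABARAP, which coats the autophagosome, from 113 ± 10.5 to 313 ± 3.59 CPM, whereas the initiating kinase ULK1 fell from 37.3 ± 1.35 to 13 ± 0.993 CPM.

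Stress and fuel lists had calls in both directions. In the integrated stress response 14 of 27 genes were higher and 10 lower (median 0.30). The cystine transporter SLC7A11 was at 3.32, 4.37 and 5.4 CPM in K148Q and 72.9, 75.4 and 86.2 CPM in K148R libraries (log2 fold change 4.16, SE 0.15, adjusted p = 1.9e-09). PPP1R15A, which ends the response, rose from 50.02 ± 3.42 to 263 ± 27.3 CPM and the stress-induced factor ATF3 from 2.93 ± 0.933 to 18.7 ± 0.641 CPM, but the serine synthesis genes PHGDH and PSAT1 fell from 21 ± 0.607 to 5.11 ± 0.484 CPM and from 77.2 ± 8.82 to 31.8 ± 1.87 CPM. Of 18 NRF2 targets and iron genes 8 were higher, 2 lower, or 6 lower without K148Q replicate 3, and 8 did not pass. Among those higher, the ferritin chain FTH1 rose from 647 ± 27 to 1343 ± 12.7 CPM and HMOX1 from 1.87 ± 0.463 to 12.3 ± 0.812 CPM. Chaperones had 11 of 31 higher, such as HSPA5 of the endoplasmic reticulum from 1045 ± 15.8 to 1585 ± 35.5 CPM, and 9 lower, such as cytosolic HSP90AA1 from 3044 ± 192 to 2092 ± 40.6 CPM. Glycolysis and the pentose phosphate pathway had 7 of 27 higher and 13 lower (median -0.28): hexokinase HK2 rose from 139 ± 2.67 to 314 ± 5.98 CPM, while LDHB fell from 894 ± 15.4 to 515 ± 9.06 CPM.

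The remaining growth and fuel lists were divided. Of 23 hypoxia genes with a row, 19 were tested, with 8 higher, such as BNIP3L from 58.4 ± 18 to 162 ± 11.1 CPM, and 6 lower, such as NDRG1 from 89.3 ± 4.18 to 45.9 ± 3.47 CPM. The median of that list was 0.26, 0.07 without K148R replicate 3 and -0.05 without K148Q replicate 2. Fatty acid synthesis had 7 of 16 higher, or 4 without K148R replicate 1 or replicate 2, and 8 lower, with the desaturase SCD rising from 463 ± 9.27 to 848 ± 21.8 CPM and ACSL1 falling from 329 ± 14.8 to 135 ± 6.51 CPM. Transcripts that host small nucleolar RNAs had 6 of 18 in each direction, GAS5 rising from 97.8 ± 4.86 to 154 ± 3.84 CPM and SNHG6 falling from 120.5 ± 15.2 to 65.4 ± 4.57 CPM. Aminoacyl-tRNA synthetases were lower in 12 of 20 cases and higher in 3, or 7 with the GC content and length correction, with FARSB falling from 116 ± 11.6 to 44.7 ± 3.34 CPM and WARS, which interferon also induces, rising from 210.2 ± 5.37 to 368 ± 16.3 CPM.

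Chromatin regulators included large differences in genes tied to DNA synthesis. The maintenance methyltransferase DNMT1 was at 706, 703 and 639 CPM in the K148Q libraries and 254, 251 and 239.8 CPM in the K148R libraries (log2 fold change -1.46, SE 0.0594, adjusted p = 4.6e-09). EZH2, the Polycomb methyltransferase, fell from 82.1 ± 3.78 to 28.5 ± 1.05 CPM and IDH2, whose product feeds the TET enzymes, from 431 ± 27.4 to 112 ± 5.25 CPM, while TET3 rose from 99.6 ± 3.29 to 151 ± 4.52 CPM. In that list 8 of 22 genes were higher, or 5 without K148R replicate 2, and 10 lower (median -0.17, or -0.05 without that library). Of 27 lysine acetyltransferases and deacetylases 9 were higher and 11 lower (median -0.07). Among acetyltransferases, the coactivators CREBBP and EP300 rose from 69 ± 1.72 to 145 ± 1.67 CPM and from 157 ± 6.08 to 224 ± 13.2 CPM, whereas KAT2A, which acetylates MYC among its substrates, fell from 108 ± 10.9 to 67.2 ± 5.12 CPM and HAT1, which acetylates new histones, from 191 ± 22.9 to 62.6 ± 9.71 CPM. The deacetylase HDAC5 rose from 92.6 ± 9.11 to 153 ± 12.7 CPM.

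Genes that control transcription elongation were higher where they differed: of 18 genes of the 7SK complex, P-TEFb and BET proteins 13 were higher and 0 lower (median 0.45). HEXIM1, which holds P-TEFb inactive, was at 49.7, 48.1 and 48.9 CPM in K148Q and 113, 101 and 109.6 CPM in K148R libraries (log2 fold change 1.15, SE 0.0728, adjusted p = 1.5e-07). CDK9, the kinase of P-TEFb, rose from 52.1 ± 3.96 to 72.2 ± 0.749 CPM, the elongation factor SUPT5H from 292 ± 22.1 to 564 ± 23.7 CPM, and the BET gene BRD2 from 234 ± 9.67 to 325 ± 8.79 CPM. Telomere genes were lower in 10 of 15 cases, or 6 without K148R replicate 2, and higher in 1, or 2 without K148Q replicate 3. TERT, the catalytic subunit of telomerase and a known MYC target, was at 3.19, 2.94 and 1.78 CPM in the K148Q libraries and had no count in K148R, which makes it at least 43.9-fold lower. TERT reached the filter through the K148Q libraries alone, so it had to differ. Of the 14 telomere genes that reached it in all 6 libraries 9 were lower and 1 higher. The shelterin gene ACD fell from 40.3 ± 4.01 to 17 ± 0.882 CPM and TERF2IP rose from 82 ± 2.72 to 114 ± 2.78 CPM.

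Several short RNA genes and histone genes were much higher in the K148R libraries. RN7SK (chromosome 6, 52995621 to 52995948), the RNA of the 7SK complex, which RNA polymerase III makes without a poly(A) tail, was at 7.43, 4.51 and 3.81 CPM in the K148Q libraries and 515, 491 and 427 CPM in the K148R libraries (log2 fold change 6.51, SE 0.188, adjusted p = 3.2e-09). Of 28 short RNA genes with a row, 13 passed the filter, of which 11 were higher and 0 lower, among them SNORD3A from 1.49 ± 0.534 to 10.9 ± 2.14 CPM and RPPH1 from 1.05 ± 0.153 to 6.01 ± 1.39 CPM. Replication-dependent histones, whose transcripts mostly end in a stem-loop, passed the filter in 31 of 52 cases, of which 30 were higher and 0 lower. HIST1H2BK was at 15.4, 13.9 and 13.2 CPM in K148Q and 124, 116 and 126 CPM in K148R libraries (log2 fold change 3.10, SE 0.0879, adjusted p = 4.1e-10), HIST2H2BE rose from 0.852 ± 0.355 to 20.5 ± 2.97 CPM and the linker histone HIST1H1C from 4.99 ± 0.779 to 30.2 ± 1.11 CPM. Of the 31 histone genes, 25 reached the filter through the K148R libraries alone, and of the 6 that reached it in all 6 libraries 5 were higher and 0 lower (median 2.85), and of the 13 short RNA genes, 6 reached the filter through the K148R libraries alone, and of the 7 that reached it in all 6 libraries 5 were higher and 0 lower (median 1.66). Those that passed through K148R alone had to differ, and their count supports no direction. With at least 10 counts in every library 5 histone genes and 5 short RNA genes were higher. No source used here tells whether poly(A) selection was alike in all libraries, and its part in these results was not tested.

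The differences were spread over the genome. Median log2 fold changes by chromosome ran from -0.16 on chromosome 2, with 768 tested genes, to 0.12 on chromosome 20, with 351. On chromosome 8, which carries MYC, 129 of 417 tested genes were higher and 139 lower, a share in each direction near that of the whole table. Without K148Q replicate 3 the medians of these 3 chromosomes were -0.10, 0.07 and -0.01.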

How the data were processed

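RNA of 6 samples was sequenced by an Illumina protocol from column-purified total RNA, per the labels' protocols, and no source used here tells of poly(A) selection. The authors deposited raw read counts per gene symbol in a table of 26485 symbols. Tools listed in the submitters' processing notes are HISAT2 2.0.5, featureCounts 1.5.2 and FastQC 0.11.7, with the build GRCh38. Their options, the annotation and the strand counted are stated in no source used here.

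The counts of the 6 libraries alone were fitted with edgeR 4.0.16 (R 4.3.3): genes kept by filterByExpr (12509), TMM scaling, a robust quasi-likelihood test of genotype and Benjamini-Hochberg adjustment over all tested genes, with calls at an adjusted p under 0.05. Total counts of 14477839 to 18938391 gave a biological coefficient of variation of 0.0910, or 0.0454 without K148Q replicate 3. A group with 0 counts was set at a floor of 3 counts over its libraries, 0.0656 CPM in K148Q and 0.0600 CPM in K148R, and floors and 95% intervals cover counting error only. On simulated data for this comparison (11940 genes), 28% of 1.25-fold, 96% of 1.5-fold and 100% of 2-fold and 4-fold changes were recovered, and 6.9% of calls were false. The simulation changed 50 genes for each fold, none at low level, and gave all genes the same dispersion. It held far fewer changed genes than these data and no library that stands apart, so these shares need not hold here.

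The samples, gene lists and rules were chosen with earlier results of these data known. Genes were named by size and p-value over all genes, the 12 largest and 6 smallest p in each direction. These had to be called, at 10 CPM or more and with groups that do not overlap. Further genes were named by p-value within each list, and from short lists as a whole. The text gives a selection of all these. Some results are not reported here. Lists were described by counts and medians, with no set test. Alternatives were a fit over all 9 libraries, DESeq2 1.42.0, limma-voom 3.58.1, other scalings and filters, each library left out, a replicate block, a correction for GC content and length, and a 1.5-fold threshold.

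Coordinates came from GENCODE v29 (GRCh38) for 23899 symbols, a further 694 by synonym, and RefSeq for 811. Of 226 genes named with values, 43 share exon bases with another tested gene, a large portion of their own in BAD, CCNE2, CDK4, FTH1, HOXA11, IFITM2, ITGB7, MRPL33, RPL10, SLC46A1, SNHG6, SQSTM1, SYT2, TSR1 and TYMS, whose counts are uncertain. Histone, HLA, ribosomal protein, ferritin and Fc receptor genes have near-identical copies and are uncertain too.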

Additional observations from a re-analysis of the deposited data

How the results depend on the processing

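With each alternative other than the 1.5-fold threshold, 3770 to 4751 genes were higher and 3880 to 5043 lower, within 1.5 times of 4178 and 4328, and MYC stayed lower at -0.46 to -0.32. Leaving out 1 library gave 3830 to 4680 higher and 3967 to 4692 lower. Tested against a 1.5-fold threshold, 1980 genes were higher and 1982 lower, and MYC, at -0.35, did not pass (adjusted p = 1.0), since this test asks for a larger change. Under the other alternatives, the 5 named genes that gained or lost their call were CD33, HOXA9, IFI35, ODC1 and RRN3. The median of the small nucleolar RNA host transcripts was 0.03 and turned to -0.000731 with library totals, -0.0512 without K148Q replicate 3 and -0.0155 without K148R replicate 2 (up to 0.0774 without another library), and that of the hypoxia list turned to -0.0465 without K148Q replicate 2 (up to 0.272 without another library). The cause was not tested. By more than 1.5 times, the GC content and length correction moved 16 of 96 list counts, the filter of 10 counts in every library 5 and the 1.5-fold threshold 57. Of 48 list medians, that correction moved 19 and that filter 13 by more than the spread between replicates.

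Same-numbered libraries of the genotypes had correlations of their deviations of 0.15, 0.01 and 0.29, the last being the highest of any pair. K148R replicate 1 correlated best with K148Q replicate 2 (0.19). Correlations of the deviation with GC content were 0.59, 0.61 and -0.75 for K148Q replicates 1 to 3. For K148R replicates 1 to 3 they were 0.46, 0.04 and -0.44. The labels do not pair the numbers, so the main fit took none as pairs, and whether they share a batch was not tested. With the replicate number as a block 4513 genes were higher and 4680 lower, MYC was at -0.35, and with that GC and length correction added the counts were 4751 and 5043. Depth limits genes under about 1 CPM, where calls rest on few counts.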
